A study of Mus musculus with 17 samples.

Results

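The accessible sites around the 7 Fos and Jun genes, Fos, Fosb, Fosl1, Fosl2, Jun, Junb and Jund, were followed in ATAC-seq peak lists of mouse bone marrow-derived macrophages (BMDMs). ATAC-seq marks open chromatin by the places where the transposase Tn5 can insert sequencing adapters. A site is a merged ATAC-seq interval seen in at least 2 lists, and a site belonged to a gene when it lay within 20 kb of the gene body in the GENCODE annotation of mm10. Of the 34155 sites of the series, 36 met this rule, with 6 at Fos, 9 at Fosb, 6 at Fosl1, 5 at Fosl2, 1 at Jun, 6 at Junb and 3 at Jund.

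The 17 lists came from BMDM-WT (8 lists) and BMDM-Nur77-KO cells (9 lists), called WT and KO here, that were left untreated (0 h) or stimulated with 100 ng/ml of the bacterial cell wall component lipopolysaccharide (LPS) for 1 h or 18 h. Each of the 6 groups held 3 lists, except WT at 1 h, which held 2, of which 1 carries the replicate name 1-2. All cells were grown for 7 days in L929-conditioned medium from bone marrow of male C57Bl6/J mice aged 6 to 12 weeks. The labels give the KO genotype only as cre, and the study's methods describe a deletion of Nr4a1, the gene of the nuclear receptor Nur77, in the whole body, made with a Cre under the cytomegalovirus promoter that was later bred out, with WT littermates as controls. KO cells therefore lacked Nur77 throughout development and not only during LPS. The labels do not say which samples came from separate mice, so the p-values measure the spread between these samples, which may be technical.

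Fos and Jun proteins are the core of the transcription factor AP-1. Jun proteins pair with each other or with Fos proteins, Fos proteins need a Jun partner, and the pairs bind the AP-1 motif at promoters and enhancers of inflammatory, growth and stress genes. In macrophages, Fos, Fosb, Jun and Junb are immediate-early genes that LPS switches on through MAP kinases, serum response factor and NF-kB, whereas Jund is made at a steadier level and Fosl1 and Fosl2 encode Fos proteins without the activation domain of Fos. The comparison of the genotypes asks how accessible chromatin depends on Nur77 before and during the LPS response.

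The deposited lists give no read count per site, and their p-values become smaller with sequencing depth. Each list was therefore sorted by its −log10 p-values, rank 1 having the smallest p-value, and only its first 24389 intervals were compared, since the shortest list holds no more. A site with no interval among them received rank 24390 and is called unranked here. Differences are given as a log2 rank gain, the drop in log2 rank, so that a positive gain means that a site stood nearer the top of the list and a negative gain that it stood lower. In these samples of many cells, a larger share of cells with a site open and a site more open in each cell cannot be told apart. A site is named by its gene and by the distance of its best summit from the transcription start site (TSS), in kb, negative upstream.

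The sequences of the members on which the results turn are printed 5′ to 3′ on the strand of the gene. The first 3 are RefSeq promoters of build GRCm38.p6, which run from 250 bases before to 50 bases after the RefSeq start, and they are shown because a peak summit of the same gene lies in them or within 1 kb. Capitals mark matches to 1 of 9 motifs searched on both strands, which were AP-1 (TGACTCA), CRE (TGACGTCA), a CRE-like element (TGACGCAA), the CArG box, NF-kB, C/EBP (TTGCNNAA), PU.1 (GAGGAAGT), the Nur77 monomer motif NBRE (AAAGGTCA) and EGR (GCGNGGGCG). The Fos promoter lies at chr12:85473640-85473939, the Fosl2 promoter at chr5:32136222-32136521 and the Jun promoter, on the minus strand, at chr4:95052173-95052472.

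Fos promoter: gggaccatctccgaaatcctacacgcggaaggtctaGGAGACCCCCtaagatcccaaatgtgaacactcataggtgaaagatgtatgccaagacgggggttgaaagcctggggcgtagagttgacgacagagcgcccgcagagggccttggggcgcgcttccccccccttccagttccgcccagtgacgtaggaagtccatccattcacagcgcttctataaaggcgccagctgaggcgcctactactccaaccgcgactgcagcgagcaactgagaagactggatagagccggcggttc
Fosl2 promoter: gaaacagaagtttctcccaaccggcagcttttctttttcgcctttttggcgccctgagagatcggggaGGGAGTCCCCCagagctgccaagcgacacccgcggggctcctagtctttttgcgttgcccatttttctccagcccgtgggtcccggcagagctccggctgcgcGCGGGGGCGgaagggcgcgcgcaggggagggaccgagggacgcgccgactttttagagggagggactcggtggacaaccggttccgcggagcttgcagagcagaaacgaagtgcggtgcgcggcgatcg
Jun promoter: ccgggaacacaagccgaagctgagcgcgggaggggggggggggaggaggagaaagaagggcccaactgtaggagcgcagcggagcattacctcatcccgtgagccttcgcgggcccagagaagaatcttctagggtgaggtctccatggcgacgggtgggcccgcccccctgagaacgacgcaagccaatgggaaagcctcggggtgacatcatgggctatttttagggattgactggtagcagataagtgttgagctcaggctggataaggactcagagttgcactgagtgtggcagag

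The Fos promoter held 1 NF-kB match, the Fosl2 promoter 2 overlapping NF-kB matches and 1 EGR match, and the Jun promoter none of the 9 motifs in these letters. The RefSeq promoter of Jund starts upstream of the annotated TSS and misses the summit, so 100 bases on each side of the summit are shown instead. This window, chr8:70698722-70698922, held 1 CRE, 1 C/EBP and 2 EGR matches, and it was chosen after its values were seen.

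Jund −0.13 kb: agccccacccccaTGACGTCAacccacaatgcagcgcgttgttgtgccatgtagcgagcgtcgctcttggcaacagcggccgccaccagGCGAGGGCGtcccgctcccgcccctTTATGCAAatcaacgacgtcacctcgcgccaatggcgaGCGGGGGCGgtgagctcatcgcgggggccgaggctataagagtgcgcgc

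The remaining windows, also 100 bases on each side of a summit, are those of distal elements whose rank moved with LPS or that ranked above their own promoter. They lie at chr7:19316427-19316627 (minus strand) for Fosb −6.5 kb, chr12:85468756-85468956 for Fos −5.0 kb, chr12:85497363-85497563 for Fos +23.6 kb, chr12:85455219-85455419 for Fos −18.57 kb and chr8:84981021-84981221 (minus strand) for Junb −2.40 kb. The last 2 were chosen after their values were seen.

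Fosb −6.5 kb: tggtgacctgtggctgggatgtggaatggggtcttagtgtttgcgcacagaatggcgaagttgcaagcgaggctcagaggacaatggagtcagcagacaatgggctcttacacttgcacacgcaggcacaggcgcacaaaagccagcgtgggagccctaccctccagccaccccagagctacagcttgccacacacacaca
Fos −5.0 kb: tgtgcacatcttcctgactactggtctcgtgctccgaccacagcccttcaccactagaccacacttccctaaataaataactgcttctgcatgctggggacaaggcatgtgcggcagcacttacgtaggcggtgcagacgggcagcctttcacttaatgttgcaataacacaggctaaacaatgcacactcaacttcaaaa
Fos +23.6 kb: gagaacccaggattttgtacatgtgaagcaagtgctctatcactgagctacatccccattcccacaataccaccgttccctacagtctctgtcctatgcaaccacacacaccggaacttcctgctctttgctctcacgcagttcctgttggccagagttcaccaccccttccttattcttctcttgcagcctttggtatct
Fos −18.57 kb: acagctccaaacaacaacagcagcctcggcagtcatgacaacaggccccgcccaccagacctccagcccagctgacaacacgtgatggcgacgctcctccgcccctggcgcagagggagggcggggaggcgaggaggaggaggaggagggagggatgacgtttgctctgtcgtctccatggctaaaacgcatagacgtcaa
Junb −2.40 kb: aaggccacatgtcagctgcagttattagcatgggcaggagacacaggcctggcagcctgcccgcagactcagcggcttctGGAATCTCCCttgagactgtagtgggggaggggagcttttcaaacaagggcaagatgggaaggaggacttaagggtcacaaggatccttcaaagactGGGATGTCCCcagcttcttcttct

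The Junb −2.40 kb window held 2 NF-kB matches, and the other 4 windows held none of the 9 motifs. Over all 36 member sites, the 201 bases around the summit held an AP-1 match at 3 sites (Fosb −11.6 kb, Fosb −17.3 kb and Fosl1 +0.3 kb), against 16.2% of all 34155 sites and 5.2% of the 32851 RefSeq promoters of 300 bases. NF-kB was matched at 3 member sites (4.83% of all sites, 4.51% of promoters), C/EBP at 6 (11.2% and 10.8%), the CArG box at 2 (0.984% and 1.63%), EGR at 2 (2.45% and 5.55%), CRE at 1 (1.22% and 1.79%) and PU.1 at 1 (7.72% and 3.2%). The NBRE was matched at 0 member sites (1.04% and 1.51%), as was the CRE-like element (0.463% and 0.49%). A match describes letters and not a bound factor, and 36 sites are few for such shares.

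Some sites of these loci were ranked in every list and others in few. Of the 36 sites, 17 were ranked in all 17 lists, which 31.0% of all sites were, 11 in 7 to 16 lists and 8 in 2 to 6 lists. By position, 5 were promoters of Fos or Jun genes (summit within 1 kb of a TSS), 7 were promoters of neighbouring genes, 2 lay inside the gene itself, 6 inside another gene and 16 between genes. The best 4 had a median rank under 1000 over the 17 lists, as 2.5% of all sites had: the intergenic Fos −18.6 kb element (median rank 247.5), the Jun promoter (348), the Jund promoter (450.5) and the intergenic Junb −1.3 kb element (477.5). The other 7 promoter sites in these windows belonged to neighbours, among them Rtn2 near Fosb, Ccdc85b, Fibp and Efemp2 near Fosl1, and Rnaseh2a, Prdx2 and Hook2 near Junb, and cannot be assigned to the Fos or Jun gene.

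Some sites, each merged from overlapping intervals of the lists and called wide or whole intervals here, covered whole genes. They spanned 7761 bp at Jun, 9339 bp at Junb, 8605 bp at Fos and 6169 bp at Jund. The start and the neighbouring elements of a gene thus shared 1 rank, that of the best interval in each list. Each summit was therefore also ranked by itself, with 250 bp on each side and a limit of 26558, which gave 34254 elements in all and 42 near the 7 genes. The description element by element was added after the wide intervals were seen. By the summit nearest each start, the median ranks over the 17 lists were 376 for Jun, 491 for Jund, 1302.5 for Junb, 2425.5 for Fosl2, 3489.5 for Fos and 8108 for Fosb, and the Fosl1 start had a ranked summit in only 7 lists. Neighbours in this order did not all differ beyond the spread between lists. In whole intervals, the Jun promoter stood ahead of the Jund promoter in 10 of 17 lists and Jund ahead of Fosl2 in 17 of 17, while single summits put Jund ahead of Junb in 17 of 17, Junb ahead of Fosl2 in 14, Fosl2 ahead of Fos in 12, Fos ahead of Fosb in 14 and Fosb ahead of Fosl1 in 17.

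**Figure D1:**
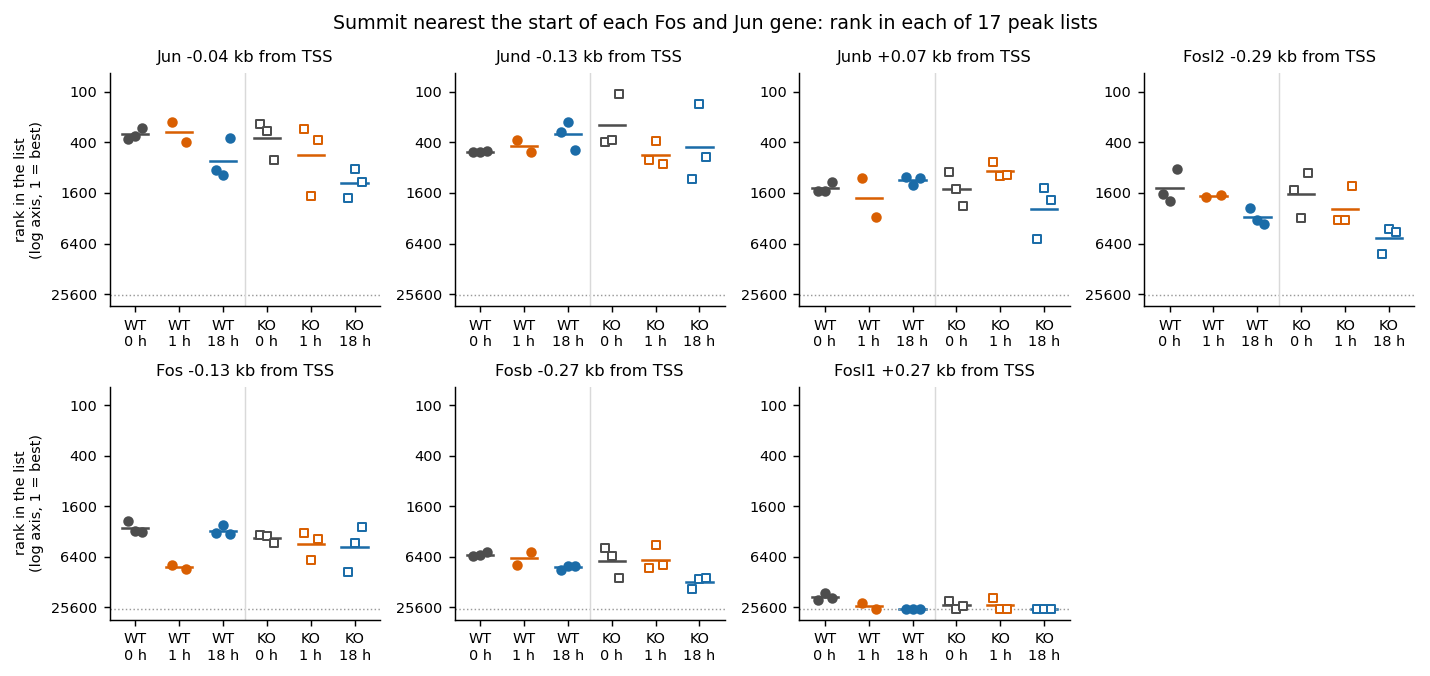
Rank of the summit nearest the TSS of each gene in each of the 17 lists, on a log axis with the best ranks at the top, for WT (filled circles) and KO (open squares) at 0, 1 and 18 h of LPS. Bars are means of log2 rank and the dotted line is the rank given to unranked summits. Jun and Jund stay near the top in every group, Fosl1 lies at or near the limit, and Jun and Fosl2 stand lowest at 18 h in KO.

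Depth differed between the groups and moved with LPS time. As recovered from the fold and p-value columns, it was 0.72 to 9.75 background reads per kb at 0 h (median 5.62), 0.382 to 4.14 at 1 h (1.22) and 1.1 to 8.38 at 18 h (3.19), and at 18 h it was 4.62 to 8.38 in WT against 1.1 to 1.76 in KO. The 2 shallowest lists were WT 1 h replicate 1-2 and KO 1 h replicate 2, and KO 18 h replicate 1 had the narrowest intervals, with a median of 135 bp against 338 to 661 bp elsewhere. Ranked promoter peaks were found at 10 of 10 macrophage genes, each in at least 12 lists, against 0 of 4 T cell genes, 1 of 4 B cell genes (Ms4a1, in 10 lists, with a gain of 0.86 at 18 h against 0 h, exact adjusted p = 0.0335), 1 of 4 granulocyte genes (S100a8, in 15) and 2 of 4 epithelial and stromal genes (Col1a1 in 14, more than Csf1r and Cd68 with 12 each, and Pdgfra in 1). The study's methods describe a purity check of these cells by flow cytometry for CD11b and F4/80, and the part of other cells in the results was not tested here. Peak lists could not check the deletion: Nr4a1 carried 2 to 6 intervals in WT, 2 to 5 in KO at 0 and 1 h and 0 to 1 in KO at 18 h, and a summit in an Nr4a1 exon occurred in 1 list only, of WT.

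Between 0 h and 1 h of LPS, 7 of the 36 member sites passed an adjusted p of 0.05 in the exact permutation test stratified by genotype, against 22.7% of all sites. Of these, 2 stood higher at 1 h (10.2% of all sites) and 5 lower (12.4%). At 14 sites the unadjusted p was under 0.05, as at 36.5% of all sites, and limma called 6, against 9605 of all 34155. The median gain was −0.16 over the 36 sites and −0.02 over all sites. None of the 5 promoter sites of Fos or Jun genes was among the 7, and 7 of 36 is a share near that of all sites.

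The largest move was at the intergenic Fosb −6.5 kb element (chr7:19315875-19317365). Fosb encodes a Fos protein with an activation domain. In WT the ranks were 1414, 1139.5 and 1753.5 at 0 h, 3594.5 and 6480 at 1 h and 3594.5, 2958 and 3109 at 18 h. In KO they were 1518, 418 and 340.5 at 0 h, 5956, 8383.5 and 6110.5 at 1 h and 1219.5, 3523.5 and 6961.5 at 18 h. Every list at 1 h stood below every list at 0 h of the same genotype, and the 18 h lists lay between them or overlapped both. The gain from 0 h to 1 h was −2.63 (exact adjusted p = 0.0272), within −2.96 and −2.42 when any 1 list was left out, and −3.26 with depth as a covariate (limma adjusted p = 0.000538). At 18 h against 0 h it was −1.78, which missed the threshold of the exact test (adjusted p = 0.0556) and passed in limma (adjusted p = 0.005). At this element 283 to 478 reads stood under the summit in WT at 0 h and 14 to 40 in WT at 1 h, where depth was lower too.

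The intergenic Fos −5.0 kb element (chr12:85468090-85469591) fell at 1 h and returned at 18 h. Fos encodes the c-Fos subunit, the classical immediate-early partner of Jun. In WT its ranks were 6241.5, 3941 and 4418 at 0 h, 11828 and 12996.5 at 1 h and 5560, 3860 and 3036 at 18 h. In KO they were 4842.5, 6139 and 3889.5 at 0 h, 10551, 13130 and 9266 at 1 h and 7299, 6804 and 6086.5 at 18 h. The 1 h lists lay below all others in both genotypes. The gain was −1.27 from 0 h to 1 h (exact adjusted p = 0.0272) and 1.16 from 1 h to 18 h (exact adjusted p = 0.0372), while 18 h and 0 h differed by −0.11 (exact adjusted p = 0.831). With depth as a covariate, limma gave −1.33 at 1 h against 0 h (adjusted p = 0.00358) and 1.21 at 18 h against 1 h (adjusted p = 0.00364).

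On the other side of Fos, 2 weak intergenic elements were ranked mainly after LPS. The Fos +23.6 kb element (chr12:85496640-85498326) was unranked in all 3 WT lists at 0 h, and stood at 14417.5 and 12996.5 at 1 h and 17875.5, 16604 and 19844.5 at 18 h in WT. In KO it stood at 23523 in 1 list and was unranked in 2 at 0 h, and stood at 11995, 13130 and 12974.5 at 1 h and 8178, 23272.5 and 18250.5 at 18 h. All 11 LPS lists stood above the 0 h lists of their genotype. The gain was 0.88 at 1 h (exact adjusted p = 0.0272) and 0.55 at 18 h (exact adjusted p = 0.0335), the latter 0.33 without KO 18 h replicate 1. Ranked as a single summit, the element passed at 1 h (0.8, exact adjusted p = 0.0271) and no longer at 18 h (0.43, exact adjusted p = 0.0768), and among intervals with a −log10 q of at least 10 neither call was kept. An interval at this place was deposited in 3 WT and 2 KO lists at 0 h, in all but 1 of them beyond the ranked number, so an unranked element is not one shown to be closed. In WT, 35 to 65 reads stood under its summit at 0 h and 6 to 24 at 1 h, where depth was lower. Its fold enrichment over background in WT was 18.5 to 21.3 at 0 h and 6.62 to 19.7 at 1 h, so the rise there was one of rank and not of fold. In KO the fold was 7.69 to 23.4 in 2 lists at 0 h and 9.96 to 40.4 in 3 lists at 1 h. The Fos +16.3 kb element (chr12:85489019-85491449) was ranked late instead: in WT it was unranked at 0 h and 1 h and stood at 10460, 13206.5 and 11955 at 18 h, and in KO it was ranked in 1 list at 0 h (20688.5), in none at 1 h and at 23854.5, 11750 and 18250.5 at 18 h. Its gain was 0.77 from 1 h to 18 h (exact adjusted p = 0.0372) and 0.73 from 0 h to 18 h (exact adjusted p = 0.0556, limma adjusted p = 0.000749). The call from 1 h to 18 h was lost when single summits were ranked (0.67, exact adjusted p = 0.0863). Here too an interval was deposited at 0 h, in 3 WT and 3 KO lists, mostly beyond the ranked number.

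**Figure D2:**
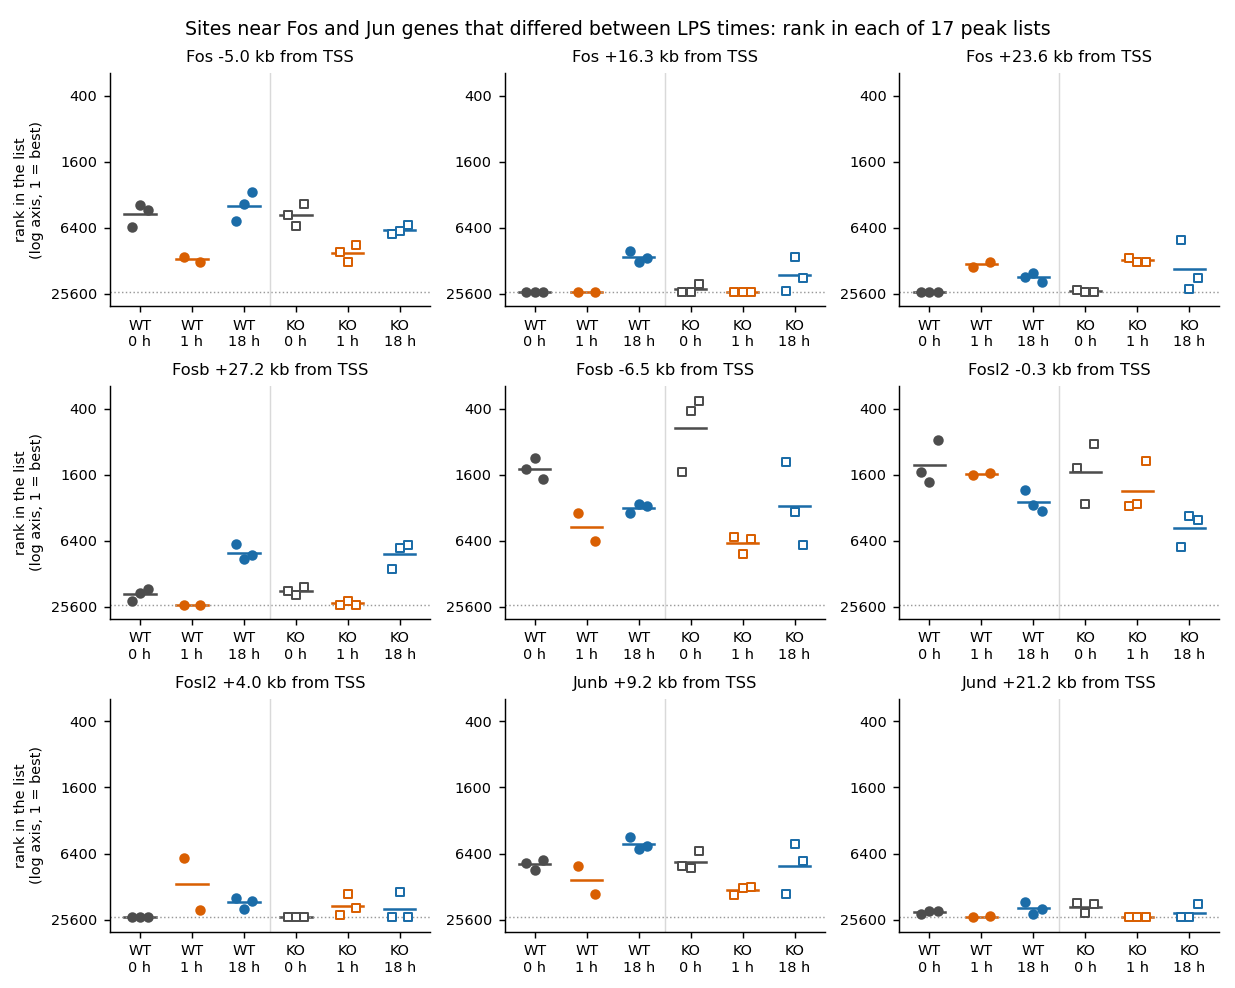
Rank of each site near the Fos and Jun genes that passed the exact test between any 2 LPS times, by list, on a log axis with the best ranks at the top (WT filled circles, KO open squares, bars means of log2 rank, dotted line the rank of unranked sites). Fosb −6.5 kb and Fos −5.0 kb drop at 1 h in both genotypes, Fosb +27.2 kb rises at 18 h in both, and Fos +23.6 kb appears above the limit after LPS.

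In the gene body of Fosl2, which encodes the Fos protein Fra-2, an intronic site at Fosl2 +4.0 kb (chr5:32137798-32140024) was unranked in all 6 lists at 0 h. At 1 h it stood at 6958.5 and 20882 in WT and at 23214, 14876.5 and 20242.5 in KO, and at 18 h at 16180.5, 20323.5 and 17153.5 in WT and in 1 KO list (14306). All 5 lists at 1 h stood above the 0 h lists. An interval was deposited at this place at 0 h too, in 3 WT and 2 KO lists, beyond the ranked number. Its fold enrichment over background in WT was 14.9 to 16.1 at 0 h and 10.4 to 12.6 at 1 h. In KO the fold was 8.46 to 16.8 in 2 lists at 0 h and 9.06 to 21.4 in 3 lists at 1 h. The gain at 1 h was 0.68 (exact adjusted p = 0.0272), which depended on single lists: it dropped to 0.29 when WT 1 h replicate 1-2 was left out, reached 1.08 when WT 1 h replicate 3 was, and was 0.31 with depth as a covariate (limma adjusted p = 0.498). Ranked as a single summit it did not pass (0.48, exact adjusted p = 0.129). The 3 remaining calls at 1 h were lower and small. They were the Rtn2 promoter at Fosb +27.2 kb (gain −0.35, exact adjusted p = 0.0441), the promoter shared by Rnaseh2a and Prdx2 at Junb +9.2 kb (−0.67, exact adjusted p = 0.0441) and Jund +21.2 kb within Gm3336 (−0.23, exact adjusted p = 0.0441). None of these 3 passed in limma, where the adjusted p-values were 0.113, 0.0539 and 0.0671, and as single summits only Junb +9.22 kb did (exact adjusted p = 0.0442).

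Leaving out 1 list of the comparison raised the smallest p that the exact test can give from 0.005 to between 0.01 and 0.0167. The count of 7 fell to 0 without any 1 of WT 0 h replicates 1, 2 and 3, WT 1 h replicates 1-2 and 3, KO 0 h replicate 1 and KO 1 h replicate 1, where 0.0% of all sites passed as well, and to 4 without KO 1 h replicate 3 (20.3% of all sites). Without both shallowest lists it was also 0, with 0.0% of all sites at a smallest possible p of 0.025. With depth as a covariate limma called 4, of which 2 were higher and 2 lower, against 17.1% of all sites.

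At 18 h against 0 h, 3 of the 36 sites passed the exact test (14.9% of all sites), 2 higher (6.28%) and 1 lower (8.66%). At 11 sites the unadjusted p was under 0.05, as at 30.8% of all sites, and limma called 9, against 8109 of all 34155. The 2 that stood higher were Fos +23.6 kb and Fosb +27.2 kb, and the 1 that stood lower was the Fosl2 promoter. At 18 h against 1 h, 3 sites passed (13.5%), all 3 higher (5.2%) and 0 lower (8.26%, with 3 lower at an unadjusted p under 0.05 and 2 in limma), with 10 sites under an unadjusted p of 0.05 (29.1% of all sites) and 8 called by limma (9869 of all 34155). Those were Fos −5.0 kb, Fos +16.3 kb and Fosb +27.2 kb. The comparisons share lists with each other, so their counts are not independent. Without KO 0 h replicate 1 the 18 h count against 0 h was 1 (10.2% of all sites), without KO 18 h replicate 1 it was 5 (20.3%), and the count against 1 h was 0 without any 1 of the 11 lists involved, where 0.0% of all sites passed as well.

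The Rtn2 promoter at Fosb +27.2 kb (chr7:19281761-19283647) stood highest at 18 h. Rtn2 encodes a reticulon, a shaping protein of the endoplasmic reticulum. Its ranks in WT were 22433.5, 19175 and 17455.5 at 0 h, unranked in both lists at 1 h, and 6879.5, 9474 and 8684.5 at 18 h. In KO they were 18463.5, 19855.5 and 16815 at 0 h, 22863 in 1 list and unranked in 2 at 1 h, and 11542, 7449.5 and 6961.5 at 18 h. Every 18 h list stood above every list of 0 h and 1 h. The gain was 1.18 against 0 h (exact adjusted p = 0.0335) and 1.53 against 1 h (exact adjusted p = 0.0372), with 1.11 to 1.3 against 0 h when any 1 list was left out. Against 0 h the call was lost without KO 0 h replicate 1, without KO 0 h replicate 2, with 50% cover and with the 10000 best intervals, where the gain was 0.29, while against 1 h it was lost without any 1 list of the comparison and with 50% cover, the 10000 best or all deposited intervals.

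The Fosl2 promoter (Fosl2 −0.3 kb, chr5:32132742-32137477) was the only one of the 5 promoter sites in whole intervals that passed the exact test between LPS times. Its ranks in WT were 1530.5, 1861.5 and 767 at 0 h, 1616.5 and 1557.5 at 1 h and 2212.5, 3010.5 and 3420 at 18 h. In KO they were 1380.5, 2943 and 842.5 at 0 h, 3116.5, 2993.5 and 1208 at 1 h and 7299, 3823.5 and 4179.5 at 18 h. All 18 h lists stood below all 0 h lists of the same genotype. The gain at 18 h against 0 h was −1.41 (exact adjusted p = 0.0335, limma adjusted p = 0.00768), within −1.65 and −1.2 when any 1 list was left out. The exact call was kept in 11 of 17 such fits, and was lost without WT 0 h replicate 3, without any 1 of WT 18 h replicates 2 and 3 and KO 18 h replicates 1, 2 and 3, and with 50% cover (adjusted p = 0.64).

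The Jun promoter stood high in every group, and its drop at 18 h missed the threshold of the exact test with all lists and passed in limma. Jun encodes c-Jun, the subunit that can also pair with itself. Its site (chr4:95047266-95055026, which also overlaps the antisense transcript Junos) had ranks of 334, 306 and 242.5 in WT at 0 h, 203 and 364 at 1 h and 786.5, 908.5 and 323.5 at 18 h. In KO the ranks were 216.5, 273 and 594 at 0 h, 254.5, 1598 and 348 at 1 h and 1585.5, 761.5 and 1092 at 18 h. In KO every 18 h list stood below every 0 h list, whereas in WT the best 18 h list lay within the range of the 0 h lists. The gain at 18 h against 0 h was −1.41 (exact adjusted p = 0.0556, limma adjusted p = 0.0351), and the exact test passed without WT 18 h replicate 3 (adjusted p = 0.0366), with all deposited intervals (0.0317) and with sites in at least 6 lists (0.042). At 1 h against 0 h it was −0.28 (exact adjusted p = 0.817), from −0.54 to 0.12 when 1 list was left out and 0.3 with depth as a covariate, so that it had no settled sign.

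The Jund promoter (chr8:70697358-70703526) did not pass in any LPS comparison. Jund encodes JunD, which often restrains growth. Its ranks in WT were 483.5, 487.5 and 462 at 0 h, 342.5 and 481.5 at 1 h and 274.5, 202.5 and 450.5 at 18 h. In KO they were 372.5, 342.5 and 93 at 0 h, 594, 347.5 and 675 at 1 h and 945.5, 122.5 and 549 at 18 h. In KO the 3 lists at 18 h spread over a wider range than any WT group. The gains were −0.48 at 1 h (exact adjusted p = 0.494) and −0.05 at 18 h (exact adjusted p = 1) against 0 h. When 1 list was left out they ran from −0.65 to −0.15 at 1 h and from −0.48 to 0.27 at 18 h. With depth as a covariate they were −1.17 and −0.17, so the 18 h gain had no settled sign.

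The Fos promoter (Fos −0.1 kb, chr12:85471714-85480318) had ranks of 2250.5, 2900 and 3013.5 in WT at 0 h, 6958.5 and 7974.5 at 1 h and 3013.5, 2445 and 3181.5 at 18 h. In KO the ranks were 3228.5, 3293.5 and 3889.5 at 0 h, 3068, 6173.5 and 3527 at 1 h and 8178, 3823.5 and 2568 at 18 h. In WT both 1 h lists stood below all 0 h and 18 h lists, and in KO the 3 times overlapped. The pooled gain at 1 h against 0 h was −0.85, which missed the threshold in the exact test (adjusted p = 0.103) and passed in limma (adjusted p = 0.0321), though not with depth as a covariate (−0.64, limma adjusted p = 0.261). The difference between the KO and WT responses at 1 h was 1.23 (limma, unadjusted p = 0.0415) and did not pass after adjustment over all sites.

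The intergenic Fos −18.6 kb element (chr12:85454402-85456300) was the best-ranked site of all 36 and stood ahead of the Fos promoter in 17 of 17 lists and ahead of the Jun promoter in 13. Its ranks in WT were 212, 173 and 247.5 at 0 h, 126 and 98 at 1 h and 546, 352 and 508.5 at 18 h. In KO they were 392.5, 187 and 124.5 at 0 h, 327.5, 72 and 76 at 1 h and 1219.5, 364.5 and 303 at 18 h. In WT the 3 times did not overlap, with 1 h at the top and 18 h at the bottom, and in KO they overlapped. The gain from 1 h to 18 h was −2.06, with an exact adjusted p of 0.0606 and a limma adjusted p of 0.00547. Reads under the summit ranged from 34 to 737 over the lists, with 34 to 132 in WT at 1 h, the group with the shallowest list.

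The Fosl1 promoter (Fosl1 +0.3 kb, chr19:5447416-5448937) was the weakest of the 7 genes. Fosl1 encodes Fra-1. Its ranks in WT were 17813, 15053 and 16936.5 at 0 h and 20457 and 23650 at 1 h, and it was unranked in all 3 lists at 18 h. In KO it stood at 18251.5 and 20688.5 in 2 lists at 0 h, 17010.5 and 23448.5 in 2 lists at 1 h and 23272.5 in 1 list at 18 h. The 18 h lists lay at or near the limit in both genotypes. The gain at 18 h against 0 h was −0.38 (exact adjusted p = 0.077, limma adjusted p = 0.00765).

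Junb and Fosb had no promoter site of their own in the whole intervals, because the best summit of the interval over the start lay elsewhere. Junb encodes an AP-1 subunit that often opposes c-Jun. Its interval (chr8:84973703-84983041) had its best summit at Junb −1.3 kb, with ranks of 477.5, 382.5 and 695 in WT at 0 h, 978.5 and 653 at 1 h and 207.5, 253.5 and 301 at 18 h. In KO the ranks were 451, 849.5 and 1397.5 at 0 h, 451, 743 and 523 at 1 h and 729.5, 233 and 241.5 at 18 h. In WT the 18 h lists stood above all others, and in KO the list at 729.5, KO 18 h replicate 1, overlapped the 0 h lists. The gain at 18 h against 0 h was 1.12 (exact adjusted p = 0.0918, limma adjusted p = 0.036). Fosb +1.6 kb (chr7:19307242-19310832), with its best summit in an exon, stood at 5397, 5326.5 and 5109.5 in WT at 0 h, with 1 h at 6958.5 and 4971 and 18 h at 4913.5, 5311 and 4893, and in KO at 4585.5, 5493.5 and 3331, then 7859, 4084.5 and 7176, then 13081, 3270 and 5702.5, so that the groups overlapped (gain at 1 h against 0 h −0.32, exact adjusted p = 0.276).

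Single summits separated what these wide intervals joined. Of the 42 elements near the 7 genes, 2 stood higher at 1 h than at 0 h (10.1% of all elements) and 5 lower (12.5%), 1 higher (5.59%) and 3 lower (9.23%) at 18 h than at 0 h, and 2 higher (4.71%) and 2 lower (8.54%) at 18 h than at 1 h, all by the exact test. Behind Junb, the summit at the start itself (Junb +0.07 kb) did not pass in any comparison, with gains of 0.17, −0.24 and −0.41, and it stood behind Junb −1.29 kb in 16 of 17 lists. Of the 6 elements upstream of it, Junb −2.40 kb and Junb −3.58 kb passed in at least 1 comparison of LPS times and the other 4 in none.

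Junb −2.40 kb, the window with 2 NF-kB matches, stood at 13510.5, 13371.5 and 10969 in WT at 0 h, 6660.5 and 10859.5 at 1 h and 4972, 6021 and 4376 at 18 h. In KO it stood at 12159, 12576.5 and 13654 at 0 h, 7467.5, 4600.5 and 8108 at 1 h and 23773.5, 5138.5 and 6413 at 18 h. All 1 h lists stood above the 0 h lists of their genotype, and of the 6 lists at 18 h only KO 18 h replicate 1 stood below them. The gain was 0.77 at 1 h (exact adjusted p = 0.0271) and 0.89 at 18 h (exact adjusted p = 0.106).

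The next element upstream, Junb −3.58 kb, stood lower at 18 h. It stood at 10265, 11423 and 8382 in WT at 0 h, 5588.5 and 7295.5 at 1 h and 15994, 19396 and 20616 at 18 h. In KO it stood at 10564, 9416.5 and 16520 at 0 h, 9784, 3724.5 and 10076 at 1 h and 23773.5, unranked and 18457 at 18 h. All 18 h lists stood below all lists of 0 h and 1 h of the same genotype. The gain was −0.92 at 18 h against 0 h (exact adjusted p = 0.0337) and −1.6 at 18 h against 1 h (exact adjusted p = 0.0377).

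Upstream of Fos, the Fos −1.58 kb summit, inside the promoter interval, stood at 7727.5, 8899.5 and 8382 in WT at 0 h, 19543.5 and 20944 at 1 h and 10307, 14577.5 and 10210 at 18 h. In KO it stood at 8992, 9416.5 and 6908 at 0 h, was unranked in 2 lists and at 22497.5 in the other at 1 h, and was unranked in 1 list and at 24916 and 12283 in the others at 18 h. Every list after LPS stood below every list at 0 h. The gain was −1.43 at 1 h (exact adjusted p = 0.0271) and −0.87 at 18 h (exact adjusted p = 0.0337), while the summit at the Fos start (Fos −0.13 kb) had a gain of −0.89 at 1 h (exact adjusted p = 0.102). At Fosb, the exonic summit Fosb +1.58 kb had a gain of −1.03 at 1 h (exact adjusted p = 0.0271), and the summit at the start, Fosb −0.27 kb, whose RefSeq promoter holds a CRE-like element, had −0.05 at 1 h (exact adjusted p = 0.996) and −0.62 at 18 h against 1 h (exact adjusted p = 0.0377).

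**Figure D3:**
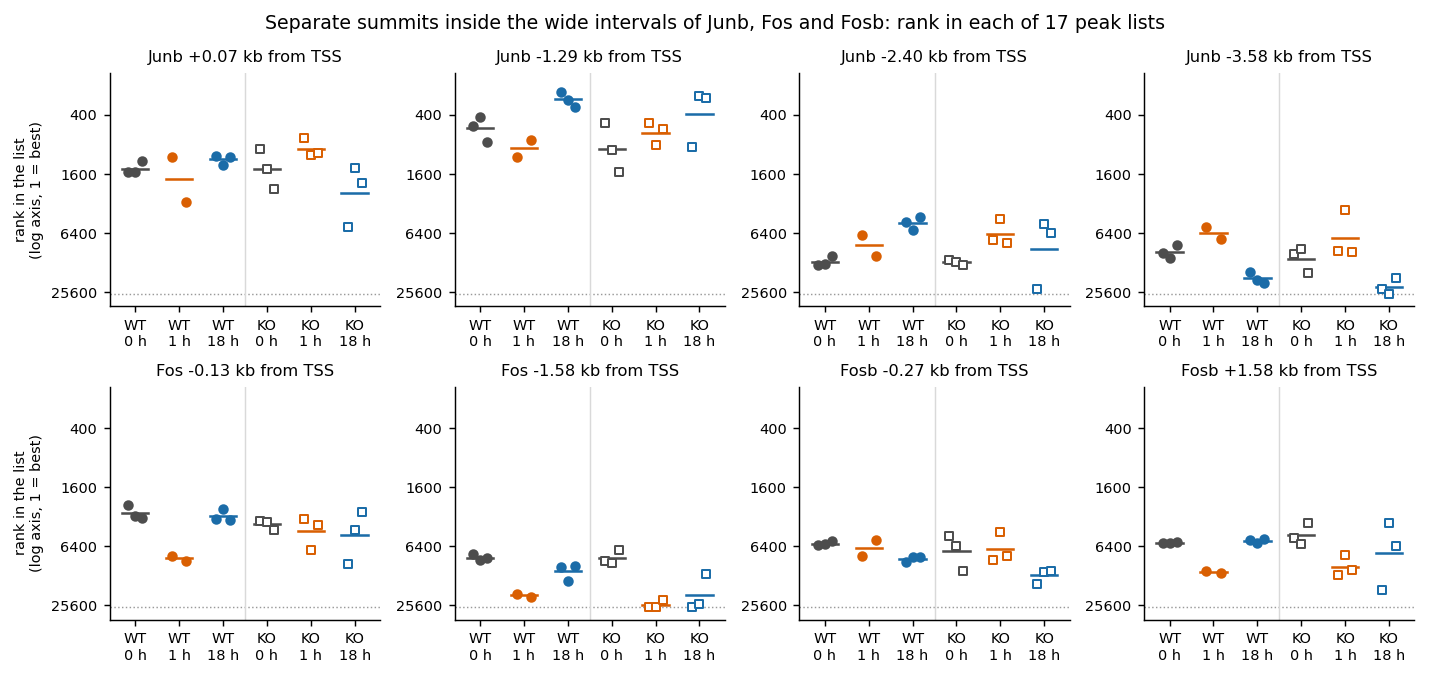
Rank of separate summits inside the wide intervals of Junb, Fos and Fosb in each list, on a log axis with the best ranks at the top (WT filled circles, KO open squares, bars means of log2 rank, dotted line the rank of unranked summits). Junb −2.40 kb stands higher after LPS, apart from KO 18 h replicate 1, Junb −3.58 kb stands lowest at 18 h, and Fos −1.58 kb falls at 1 h, while the summits at the starts of Junb and Fosb overlap between 0 h and 1 h.

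**Figure D4:**
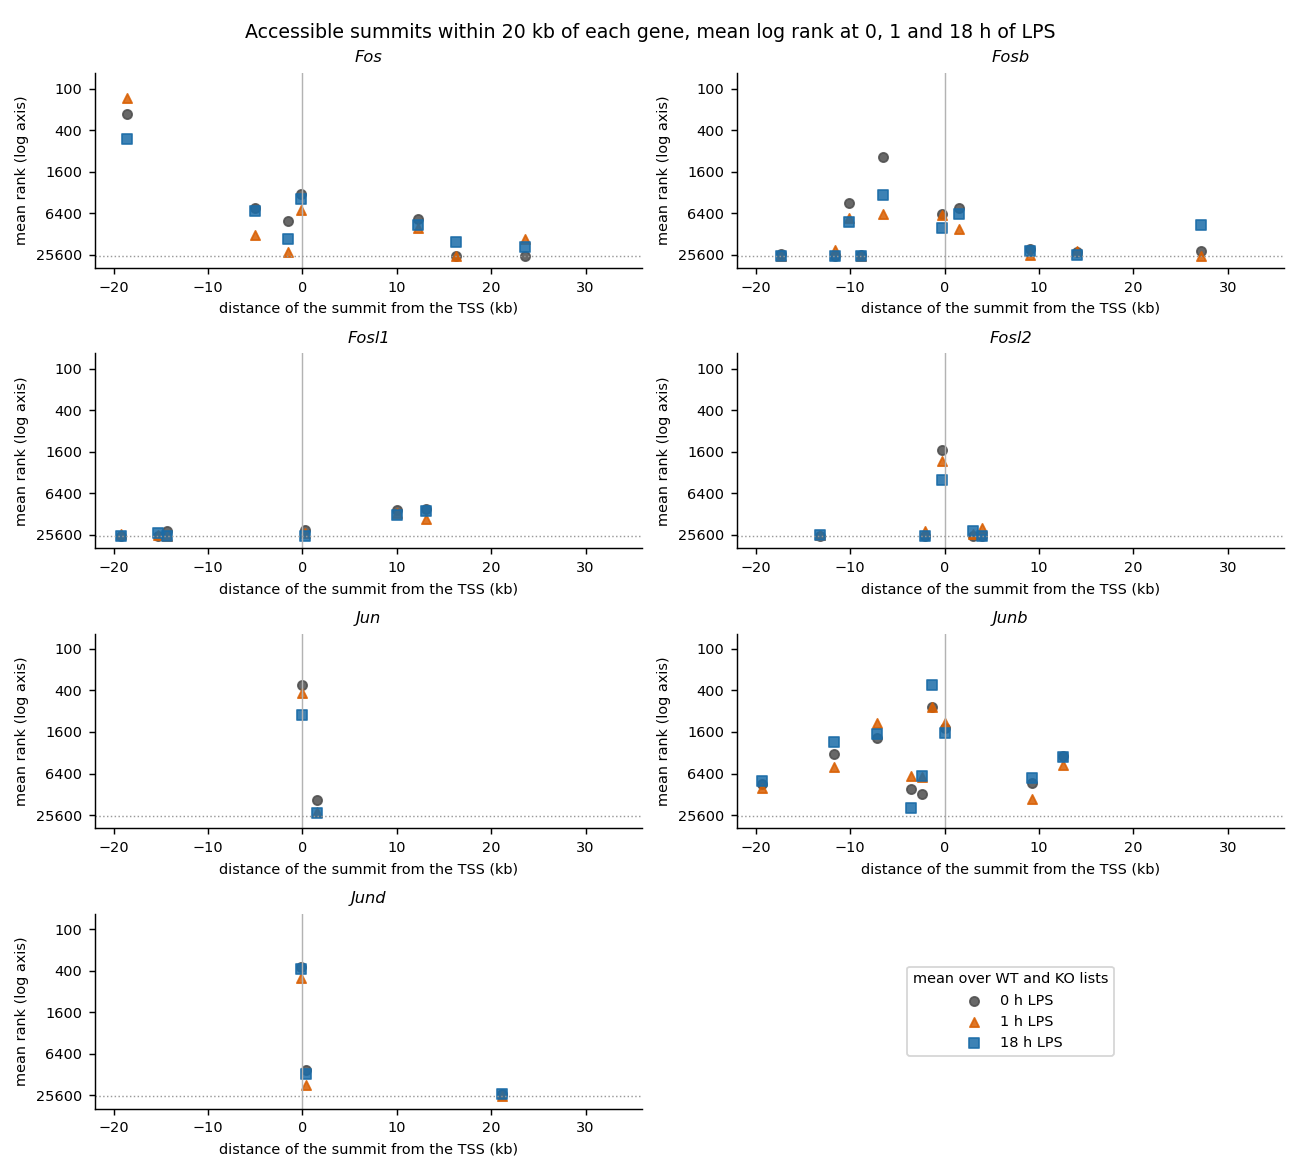
Position of every ranked summit near each gene (distance from the TSS in kb, negative upstream) against its mean rank over WT and KO lists (log axis, best at the top) at 0 h (grey circles), 1 h (orange triangles) and 18 h (blue squares), with the dotted line at the rank of unranked summits. Jun, Jund and Fosl2 have their best summit at the start, whereas the best summits of Fos, Fosb and Junb lie at Fos −18.57 kb, Fosb −6.48 kb and Junb −1.29 kb.

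Loss of Nur77 was compared over all times and at each time. In the exact test stratified by LPS time, 0 of the 36 sites passed, as did 0.0% of all 34155 sites. Unadjusted p was under 0.05 at 1 member site (Fosb −10.1 kb, gain −0.39, exact p = 0.00725), against 6.98% of all sites, and limma called 0 members and 183 of all 34155 sites. The median gain was −0.06 over the members and −0.00 over all sites. In limma at each time, 0 members passed at 0 h (0.278% of all sites), 1 at 1 h (1.19%) and 0 at 18 h (0.817%), with 2 members under an unadjusted p of 0.05 at each time, against 4.38%, 10.8% and 13.1% of all sites. The 18 h count depended on the setting: it was 5 when all deposited intervals were ranked (7.99% of all sites), 2 when an interval had to cover 50% of a site (12.1%) and 2 without KO 18 h replicate 2 (3.66%). The first of these sets lists of different length side by side, with 29568 to 36136 intervals in KO and 46364 to 61492 in WT. The difference between the KO and WT responses passed at 0 members for 1 h (0.252%, with 2 unadjusted against 7.09% of all sites) and at 0 for 18 h (0.0468%, with 1 unadjusted against 6.64%).

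The 1 site that passed was Fosb −11.6 kb (chr7:19321477-19321877, within the lincRNA gene D830036C21Rik), which holds 1 AP-1 and 2 NF-kB matches around its summit. At 1 h it stood at 17413.5 and 12373 in WT and at 19321.5, unranked and 23448.5 in KO. At the other times it was ranked only in WT 18 h replicate 3, at 20622. Both WT lists at 1 h stood above the 3 KO lists. KO minus WT at 1 h was −0.6 ± 0.12 (SE, limma adjusted p = 0.0249). This SE is pooled over groups of which 3 had an SD of 0, because all their lists were unranked, while the SD of log2 rank at 1 h was 0.35 in WT and 0.18 in KO, so it understates the spread at 1 h. In limma the adjusted p was 0.00497 with summit windows, 0.0114 with depth as a covariate and 0.00768 with the replicate block, against 0.987 with all deposited intervals and 0.578 with 50% cover. The call was lost without WT 1 h replicate 3, KO 1 h replicate 2 or KO 1 h replicate 3, each left out alone. The site was not tested with the 10000 best intervals, the minimum of −log10 q or sites in at least 6 lists, which leave it out. Without WT 1 h replicate 3, 2 other members passed (6.67% of all sites). Reads under the summit at 1 h numbered 5 to 25 in WT and 5 to 43 in KO.

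None of the 5 promoter sites passed between KO and WT, and the intervals were wide at 4 of them, all but Fosl1. KO minus WT at the Jun promoter was −0.17 at 0 h, −0.94 at 1 h and −0.84 at 18 h, with 95% intervals from limma of −1.54 to 1.21, −2.48 to 0.6 and −2.21 to 0.54. At the Jund promoter it was 1.07 at 0 h (−0.39 to 2.53), −0.35 at 1 h (−1.99 to 1.28) and −0.45 at 18 h (−1.91 to 1.01). The Fosl2 promoter gave −0.22 (−1.26 to 0.83), −0.5 (−1.67 to 0.67) and −0.79 (−1.83 to 0.26) at the same times. Each of these 9 intervals reaches past 1 log2 unit on at least 1 side, so they do not show that the genotypes were alike. The Fos promoter gave −0.36 at 0 h (−1.14 to 0.43), 0.88 at 1 h (−0.00 to 1.76) and −0.59 at 18 h (−1.38 to 0.19), and the Fosl1 promoter −0.34 at 0 h (−0.62 to −0.06, limma adjusted p = 0.85), 0.04 at 1 h (−0.27 to 0.36) and 0.02 at 18 h (−0.26 to 0.3), where many of its lists shared the rank given to unranked sites.

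Intervals that stayed within 1 log2 rank unit on both sides were found at 21 of the 36 sites at 0 h, 20 at 1 h and 18 at 18 h, but only 3, 3 and 0 of these were ranked in all 17 lists. The others include lists at the fixed rank of unranked sites, which narrows the interval and says little of how alike the genotypes were. Among the sites that moved with LPS, Fosb −6.5 kb had a KO minus WT difference of 1.24 at 0 h (0.00 to 2.47), −0.48 at 1 h (−1.86 to 0.9) and 0.05 at 18 h (−1.19 to 1.28). Fos −5.0 kb had −0.03, 0.19 and −0.74, the last with a 95% interval of −1.32 to −0.15 and a limma adjusted p of 0.254, at the time when KO lists were shallower than WT lists.

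**Figure D5:**
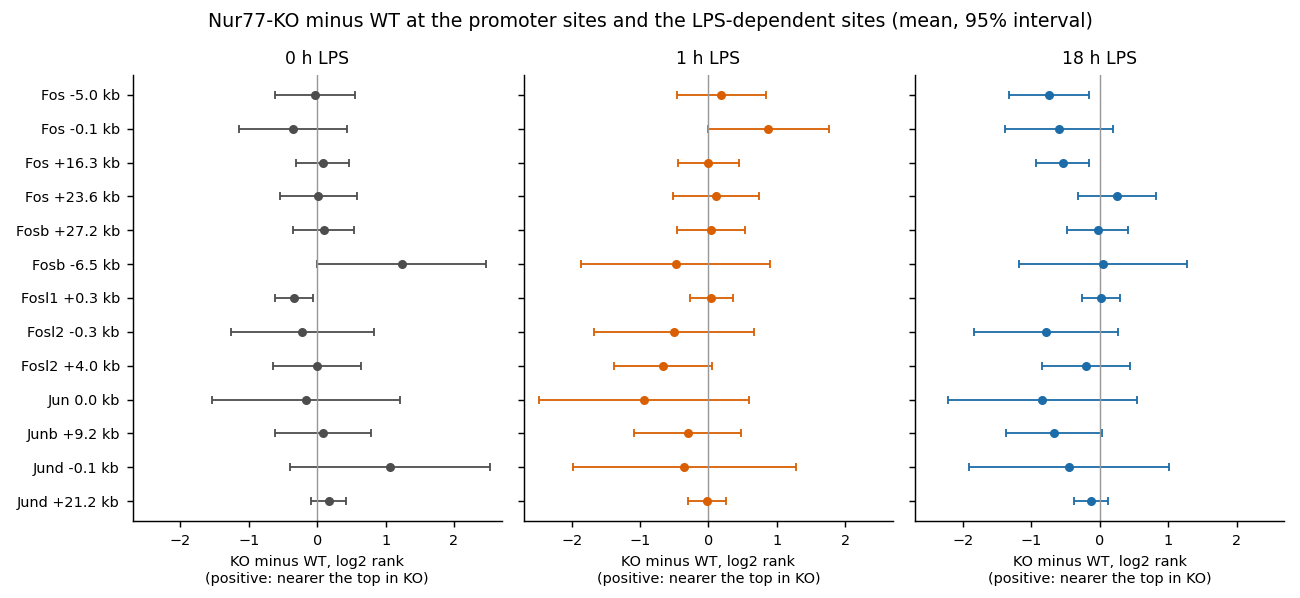
KO minus WT in log2 rank (positive means nearer the top in KO) at 0, 1 and 18 h of LPS for the promoter sites of the Fos and Jun genes and the sites that moved with LPS, as limma estimates with 95% intervals. Most intervals include 0, and they are widest at the Jun and Jund promoters.

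Ranked intervals near the 7 genes numbered 26.3 ± 0.58 in untreated WT lists (SD, n = 3), 30 ± 1.4 in the 2 WT lists after 1 h and 29.3 ± 1.2 in the 3 after 18 h. In KO, with 3 lists a time, they numbered 29.3 ± 3.2, 29.3 ± 3.2 and 30.7 ± 5.5 in that order of times. By exact permutation tests, the difference was 1.83 for 1 h against 0 h (p = 0.27, and 4.42 with p = 0.035 for intervals within 10 kb), 2.17 for 18 h against 0 h (p = 0.295, and 3.58 with p = 0.045 without KO 18 h replicate 3) and 1.22 for KO against WT (p = 0.431). These numbers moved with depth and interval width: Junb held 11, 10 and 9 ranked intervals in the 3 shallowest lists (WT 1 h replicate 1-2, KO 0 h replicate 3 and KO 1 h replicate 2) and 15 in KO 18 h replicate 1, whose intervals were the narrowest, against 6 or 7 in each of the other 13. The part of depth and width in the differences was not tested. By single loci, in 28 exact tests whose p-values are not adjusted, the difference at 1 h against 0 h was 2.5 at Fosl2 (p = 0.01), 1.33 at Junb (p = 0.26), −1.17 at Fosl1 (p = 0.015) and −0.83 at Jund (p = 0.02). At 18 h against 0 h, the exact test gave 1.67 at Fos (p = 0.025), 1.5 at Fosl2 (p = 0.03) and −1.67 at Fosl1 (p = 0.045), and at 18 h against 1 h it gave 1.83 at Fos (p = 0.005).

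Promoters of other genes of the pathway were ranked in the same way. Of 45 genes of other AP-1 family members, MAP kinases and upstream factors, 39 had a promoter site. At 1 h against 0 h, 3 stood higher and 8 lower in the exact test, against 439 higher and 1757 lower of all 10315 promoter sites. Those higher were Maff, which encodes a small Maf protein without an activation domain (gain 2.73), Creb1, which encodes the CRE-binding protein (1.66), and Map3k7, which encodes the kinase TAK1 upstream of JNK and NF-kB (1.07). Among those lower were Mef2a (−1.86) and Mef2c (−1.81), which encode MADS-box factors. At 18 h against 0 h, Mapk9, the gene of the kinase JNK2, stood higher (1.28) and 4 stood lower, among them Mef2a (−1.76) and Mef2c (−1.83), against 275 higher and 868 lower of all promoter sites. At 18 h against 1 h, Mapk9 was higher (1.82) and Maff (−3.11), Creb1 (−1.92), Mafa (−1.68) and Map3k7 (−1.58) were lower, against 440 higher and 497 lower of all promoter sites, all by the exact test over all sites. Between KO and WT 0 of the 39 passed the exact test, 2 had an unadjusted p under 0.05, and limma at the separate times called 0 in each case. The median gain of the 39 at 1 h was −0.51 against −0.27 over all promoter sites.

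Promoters with the pattern most like a member's were found by Pearson's r of log2 rank over the 17 lists among 10303 promoter sites, as a description. The 17 points share depth and LPS time, and these values say nothing of shared control. The closest were Rnf44 to Fos (r = 0.91), Rere to Fosb −6.5 kb (0.93), Lix1 to Fosl1 (0.9), Csgalnact2 to Fosl2 (0.91), Retreg1 to Jun (0.87), Mga to Junb −1.3 kb (0.89) and Lhx1 to Jund (0.85). Lix1 and Lhx1 had a median rank of 24390, so their values rest on few lists and on ties among the unranked ones.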

How the data were processed

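ATAC-seq was measured in 17 BMDM samples in 6 groups of genotype and LPS time, and only peak lists were used. The authors trimmed reads (cutadapt 2.6, per the labels), and ran the snakeATAC pipeline with default settings for mapping to mm10 and the later steps. The peak caller within it is not named in the sources used here, and peak names carry a q threshold of 0.001 and a mapping quality of 20. The deposited files hold a score, a fold enrichment (ratio) over background, −log10 p-values and −log10 q-values, and the summit offset. They give no read counts per site, so the authors' DiffBind analysis was not repeated.

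Entries with the same coordinates were merged to 1 interval, intervals were ranked by −log10 p-value, and the best 24389 per list were kept. Overlapping intervals present in at least 2 lists formed 34155 sites, with GENCODE M21 genes. Pooled contrasts used two-sided exact permutation tests within strata, and KO against WT at each time used limma 3.58.1 (R 4.3.3) on log2 rank, all with Benjamini-Hochberg adjustment over all sites and a threshold of 0.05. Depth and the reads under a summit were recovered from fold and p-value. The rule for named sites took the promoter sites and the sites past the threshold, and elements outside it were named after their values were seen. Members and gene lists were chosen with earlier results of these data known. Code was tested on simulated data (Python 3.11.15, pandas 2.3.3, scipy 1.17.1).

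Alternatives were other rank limits, list minimums and overlaps, summit windows as sites, a q minimum, limma, depth as a covariate, a replicate block, a 10 kb window and leaving out lists. The values of 1 gene of the pathway list are not reported here.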

Additional observations from a re-analysis of the deposited data

How the results depend on the processing

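Of the 338 results of alternatives for the 13 site calls of the exact test between LPS times, 158 no longer passed, 180 did and 0 changed direction. The calls of single summits were not followed by site. Counts of member sites past the threshold are given with the share of all sites in the same fit. With the 10000 best intervals they were 2 at 1 h against 0 h (15.9%), 1 at 18 h against 0 h (10.9%), 1 at 18 h against 1 h (11.6%) and, for the KO and WT lists at 1 h, 0 (1.53%). With all deposited intervals they were 0 (0.0%), 8 (20.9%), 0 (0.0%) and 0 (0.117%) in the same order, and 5 for KO against WT at 18 h (7.99%). With a −log10 q minimum of 10 they were 2 at 1 h against 0 h (21%) and, for the KO and WT lists at 1 h, 0 (1.39%). With 50% cover for a shared site they were 0, 0 and 0 between LPS times (0.0% each), 0 for the KO and WT lists at 1 h (1.1%) and 2 at 18 h (12.1%). With sites in at least 6 lists they were 6 at 18 h against 0 h (23.8%), 6 at 18 h against 1 h (20.3%) and, for the KO and WT lists at 1 h, 0 (0.496%). With limma they were 9 at 18 h against 0 h (23.7%) and 8 against 1 h (28.9%). With depth as a covariate they were 4 at 1 h (17.1%), 10 at 18 h against 0 h (23.3%) and 6 against 1 h (20.3%). Without the 2 shallowest lists, 0 passed at 1 h (0.0%). Within 10 kb, 4.42 more intervals were ranked at 1 h than at 0 h (exact p = 0.035).

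Leaving out 1 list at a time gave 0 to 7 sites at 1 h against 0 h (0.0% to 22.7% of all sites), 1 to 5 at 18 h against 0 h (10.2% to 20.3%) and 0 to 3 at 18 h against 1 h (0.0% to 13.5%). For KO against WT it gave 0 to 0 over all times (0.0% throughout), 0 to 0 at 0 h (0.173% to 0.747%), 0 to 2 at 1 h (0.908% to 6.67%) and 0 to 2 at 18 h (0.606% to 3.66%, with 2 without KO 18 h replicate 2). The difference of responses gave 0 to 2 at 1 h (0.082% to 4.21%, with 2 without WT 1 h replicate 3) and 0 to 1 at 18 h (0.0117% to 0.764%). Differences in interval number ranged from 0.917 to 2.75 at 1 h, 0.833 to 3.58 at 18 h and 0.333 to 2.17 for KO against WT.

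With the replicate block, 8 sites passed at 18 h against 0 h (23.1% of all sites), 8 at 18 h against 1 h (22%), 1 for KO against WT (0.755%), 1 for the difference of the 1 h responses (0.55%) and 5 at 1 h against 0 h (20.6%). Deviations from the group means were no more alike between samples with the same number (median r = 0.0055 over 35 pairs) than between others (0.0006 over 85 pairs). The labels do not say whether equal numbers mark a shared mouse or batch, and this check cannot tell. Depth spans 25.5-fold between lists and moves with LPS time and, at 18 h, with genotype, and its part in the results was not tested beyond the covariate and the lists left out.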
